A study of Homo sapiens with 3 samples.

Results

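The BCL2 family decides whether a cell releases the contents of its mitochondria and dies by the intrinsic pathway of apoptosis. Pro-survival members (here BCL2, BCL2L1, which encodes BCL-XL, and MCL1) bind and hold the effectors BAK1 and BAX, which otherwise form pores in the outer mitochondrial membrane. BH3-only proteins (here BCL2L11, which encodes BIM, and BMF, BID, BIK and HRK) are the stress sensors that occupy the pro-survival proteins or act on the effectors. Plasma cell tumours are known for their reliance on MCL1 and, in part of cases, on BCL2. BOK is an effector-like member.

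The family was described here through 10 genes out of 19775 that the arrays represent with a probe set of exactly 1 gene symbol. Each gene was taken with all its probe sets, 34 in all, and 0 probe sets joined a member to another symbol. Transcripts were measured on 3 Affymetrix arrays of MM1S, an established cell line from a human multiple myeloma, grown in RPMI-1640 medium with fetal bovine serum. One array each came from untreated cells (labelled 0 h), cells with 10 nM FK866 for 6 h and cells with 10 nM FK866 for 24 h. FK866 inhibits NAMPT, the enzyme that recycles nicotinamide into NAD. With 1 array per group no test was possible, and no untreated culture stands beside either treated time, so the compound cannot be told apart from time in culture. An array of a whole culture also cannot tell fewer cells with a transcript apart from less of it per cell.

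Values are deposited signals on a linear scale in arbitrary units. For differences, signals under 16 were set to 16 and log2 was taken. A probe set counted as measured where its mean log2 value over the 3 arrays reached the median of all probe sets, a signal of 19.1, which 27 of the 34 did. A gene has the value of its brightest measured probe set, and 8 of the 10 genes had one. All differences are treated minus untreated unless the 24 h and 6 h arrays are compared. The median of all 11883 measured genes differed from untreated cells by -0.10 at 6 h and -0.13 at 24 h on the log2 scale. Probe sets of the same gene are the only repeated measurement within the series. Their pooled SD on the log2 scale at 6 h was 0.18 for genes with a mean signal of 1024 or more, 0.28 from 256 to 1024, 0.40 from 64 to 256 and 0.49 from 32 to 64. The mean signal here is over all measured probe sets of a gene, which can be far under its brightest one. Probe sets share the culture and the array, so this SD leaves out the variation between cultures.

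All 9 plasma cell markers listed were measured, with summed signals of 44417, 41443 and 42224 in the untreated, 6 h and 24 h arrays. Of 15 markers of T, NK, myeloid and stromal cells, 0 of 4, 2 of 3, 2 of 4 and 1 of 4 were measured. None of these 5 exceeded a signal of 69.2 by its brightest probe set. The other COL1A1 probe set lay at -2.39 at 24 h, so its untreated signal was above 69.2. At 24 h the plasma cell markers past 1.5-fold were XBP1, 1.73-fold lower, and IRF4, 1.90-fold higher.

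**Figure D1:**
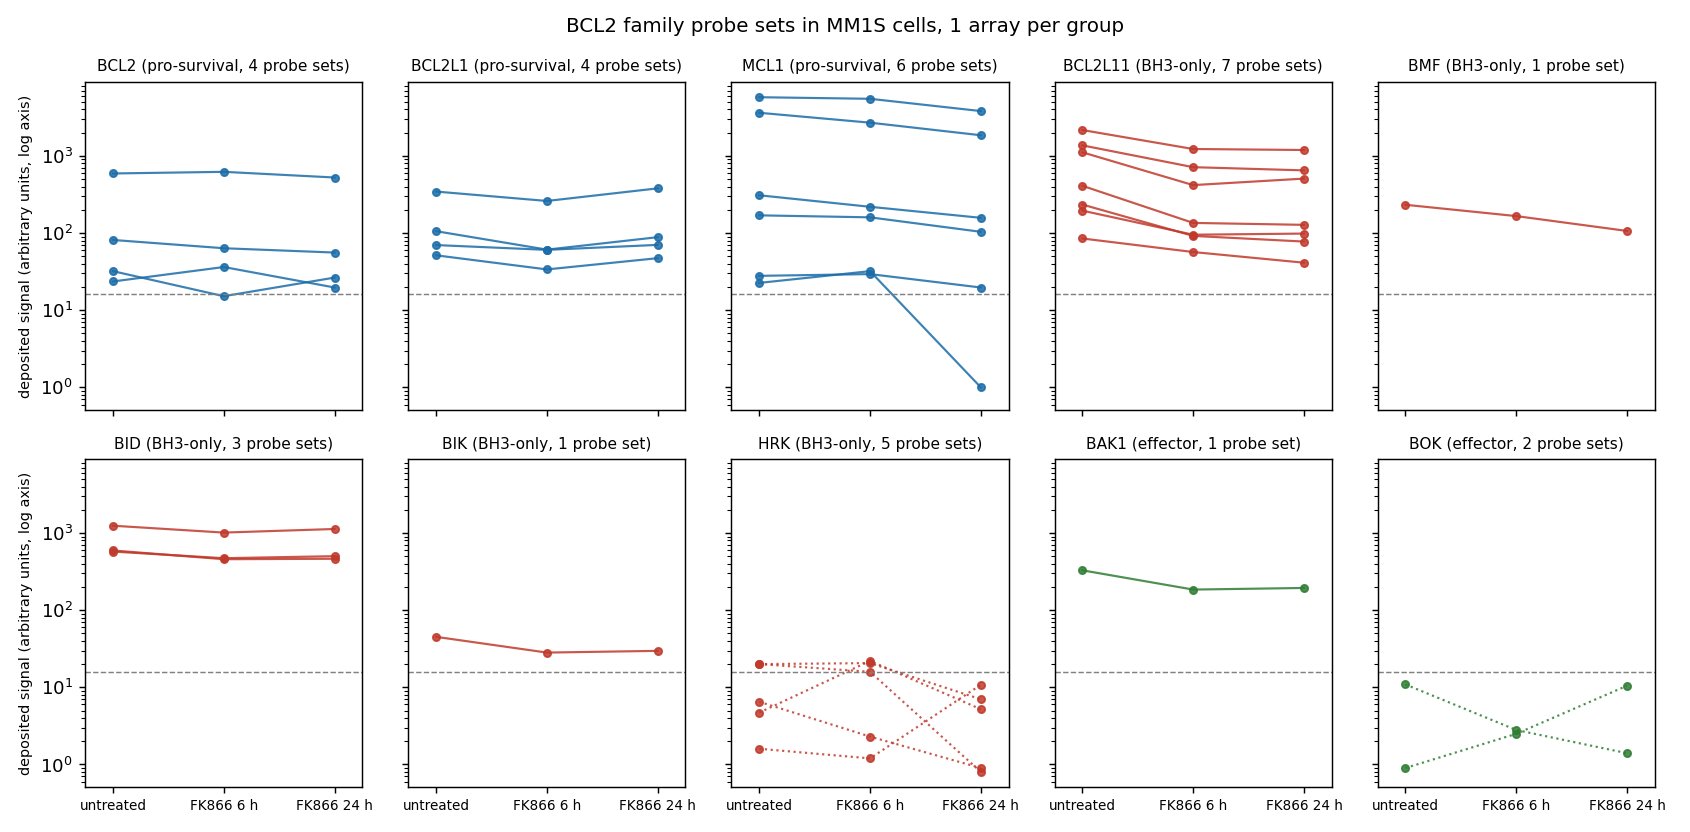
Deposited signal (log axis, arbitrary units) of the 34 probe sets of the 10 family genes in untreated MM1S cells and after 6 h and 24 h with FK866, 1 array each. Solid lines are the 27 measured probe sets, dotted lines the other 7, and the dashed line is the floor of 16. All 7 BCL2L11 lines lie lower in both treated arrays, and all 6 MCL1 lines are lowest at 24 h.

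BCL2L11 was the member with the most measured probe sets. By the brightest of them its signal was 1.76-fold lower than in untreated cells at 6 h, and 1.82-fold lower at 24 h, and each of its 7 probe sets was lower in both treated arrays. It encodes BIM, a BH3-only protein that binds all pro-survival members and is a main sensor of growth factor and cytokine loss. Its brightest probe set, 225606_at, had signals of 2165, 1228 and 1193 in the untreated, 6 h and 24 h arrays. The next, 1558143_a_at, had 1370, 714 and 649. For 1553096_s_at the signals were 1114, 418 and 508. The 3 brightest probe sets thus placed both treated arrays well under the untreated one and close to each other.

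The other BCL2L11 probe sets gave larger differences than the brightest one, with 1 exception at 6 h. Probe set 222343_at had signals of 410, 135 and 128 in the untreated, 6 h and 24 h arrays, a size of 3.03-fold at 6 h and of 3.21-fold at 24 h. Probe set 208536_s_at had 234, 91.9 and 77.6, and 1555372_at had 195, 95.2 and 98.5. The dimmest, 1553088_a_at, had 85.1, 56.8 and 41.3 and differed by -0.58 at 6 h, the smallest of the 7, and by -1.04 at 24 h. Over the 7, the median log2 difference was -1.04 at 6 h and -1.08 at 24 h, with an SD of 0.36 and 0.31 between probe sets. At 6 h 4 of them and at 24 h 5 of them were at least 2-fold lower.

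Other genes put these values in context. The arrays hold 74 genes with 7 or more measured probe sets, and all probe sets were below 0 at both times for 12 of them, or 16.2%. The median over probe sets was lowest for BCL2L11 among the 74 at both times, where the middle gene lay at -0.22 at 6 h and -0.24 at 24 h. By the brightest probe set, 328 of 11883 genes, 2.76%, were as low as BCL2L11 at both times. Of the 5530 brighter genes, whose mean log2 value was 8 or more, 61 were, or 1.10%. Between the treated arrays BCL2L11 differed by -0.04, its probe sets lying between -0.46 and 0.28, so the treated arrays gave no direction between them.

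The genes whose pair of differences lay nearest to that of BCL2L11, by Euclidean distance among 5529 other bright genes, were SOAT1, CARMIL1, NLN, RAI1 and G3BP2. SOAT1, which esterifies cholesterol, had signals of 1064, 601 and 583 in the untreated, 6 h and 24 h arrays and lay 0.011 log2 units away. In all, 13 genes lay within 0.1. The likeness rests on 3 arrays.

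FOXO factors are known to act on BCL2L11, so its promoter is shown with their core motif, together with the promoters of BMF, the member that was lowest at 24 h by its brightest probe set. By the mean over probe sets BCL2L11 (-1.20) was lower there than BMF (-1.13). The sequences are RefSeq's, build GRCh38.p14, 5′ to 3′ on the gene's strand, in windows of 300 bases that hold a gene's start near their end. Windows were used for 8 of the 10 genes, 14 windows in all, and none for MCL1 and BIK. BCL2L11 lies at chr2:111120664-111120963 on the plus strand, and BMF has windows at chr15:40108830-40109129 (BMF window 1) and chr15:40106917-40107216 (BMF window 2) on the minus strand. Capitals mark GTAAACA.
BCL2L11: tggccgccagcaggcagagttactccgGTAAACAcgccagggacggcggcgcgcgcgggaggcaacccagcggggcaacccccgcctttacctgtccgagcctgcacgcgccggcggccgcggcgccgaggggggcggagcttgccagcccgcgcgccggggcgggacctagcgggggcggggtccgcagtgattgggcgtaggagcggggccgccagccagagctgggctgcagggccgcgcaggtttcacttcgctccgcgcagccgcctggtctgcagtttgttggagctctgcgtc
BMF window 1: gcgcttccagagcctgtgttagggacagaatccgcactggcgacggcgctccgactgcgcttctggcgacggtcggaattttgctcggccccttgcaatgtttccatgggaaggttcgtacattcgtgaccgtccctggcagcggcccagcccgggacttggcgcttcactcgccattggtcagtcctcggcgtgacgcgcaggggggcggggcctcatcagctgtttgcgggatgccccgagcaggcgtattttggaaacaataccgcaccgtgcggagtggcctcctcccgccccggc
BMF window 2: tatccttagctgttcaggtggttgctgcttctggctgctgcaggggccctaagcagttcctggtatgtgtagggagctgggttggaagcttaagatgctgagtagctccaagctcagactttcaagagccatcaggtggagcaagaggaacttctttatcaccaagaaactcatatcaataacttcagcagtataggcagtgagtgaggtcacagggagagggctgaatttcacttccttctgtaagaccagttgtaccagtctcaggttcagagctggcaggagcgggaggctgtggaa

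GTAAACA was searched on both strands, where it reads TGTTTAC on the other. It occurred once in the BCL2L11 window, at chr2:111120691-111120697, and in 0 of the other 13 member windows. Of all 35116 promoter windows, 3.42% hold it. The cAMP response element TGACGTCA, its own reverse complement, was in 0 of 14 member windows and 1.85% of all. The ATF4 site TGATGNAA was in the window of HRK and in 3.62% of all, and the E-box CACGTG in 2 of the BID windows, at the same genomic position, and in 7.26% of all. No 2 of these motifs overlapped in a member window. A match of letters does not show that a factor binds there.

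Of the FOXO factors listed, FOXO3 was close to untreated at both times by its brightest probe set. It had signals of 6535, 6263 and 6346 in the untreated, 6 h and 24 h arrays, differences of -0.06 and -0.04. The 4 FOXO3 probe sets ranged from -0.26 to 0.03 at 6 h and from -0.55 to 0.12 at 24 h. FOXO1 had 121, 87.1 and 105 by its brightest probe set, with the 6 h array lowest. Its other probe set disagreed, with differences of 0.01 at 6 h and -0.47 at 24 h. Their activity is set largely by phosphorylation, which arrays do not measure.

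BMF was the only measured member at least 2-fold lower by its gene value, at 24 h. BMF encodes a BH3-only protein that is held at the cytoskeleton through dynein light chains until stress frees it. Its single probe set had signals of 233, 166 and 107 in the untreated, 6 h and 24 h arrays. Against untreated cells it was lower by 1.40-fold at 6 h and by 2.18-fold at 24 h, and the 24 h array was 1.56-fold lower than the 6 h array. The difference of -1.13 at 24 h compares with a probe set SD of 0.39 at this level, and its size depended on the scaling: it was -0.96 after quantile normalization and -0.87 after centring on array medians. Only 337 of 11883 genes, 2.84%, were as low at 24 h.

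The other BH3-only members differed less or were dim. BID, which links death receptors to mitochondria once caspase-8 cleaves it, had signals of 1242, 1012 and 1127 by its brightest probe set in the untreated, 6 h and 24 h arrays. Its 3 probe sets lay between -0.38 and -0.29 at 6 h and between -0.36 and -0.14 at 24 h. The 24 h difference of -0.14 turned to 0.04 after quantile normalization and to 0.11 after centring on array medians. BIK, a BH3-only protein of the endoplasmic reticulum membrane, had 45.1, 28.2 and 29.7. It was lower by 1.60-fold at 6 h and by 1.52-fold at 24 h, but at that level the probe set SD was 0.49.

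HRK, a BH3-only protein best known from neurons, was not measurable. It had 5 probe sets, of which 0 passed the level filter, with signals between 0.8 and 22.0. For BOK, 2 probe sets had signals between 0.9 and 10.9, under 16 on all 3 arrays. No fold is given for either gene.

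BAK1, the only measured effector among the members, was lower by 1.78-fold at 6 h and by 1.69-fold at 24 h. Its single probe set had signals of 329, 185 and 194 in the untreated, 6 h and 24 h arrays, both treated arrays being low and near each other. The differences of -0.83 and -0.76 were 2.1 and 1.9 times the probe set SD at this level. At 6 h 661 genes, 5.56%, were as low, and at 24 h 1028, 8.65%. With 1 probe set, no second measurement of BAK1 stands beside it. BAX, the other main effector and not a member here, had 362, 349 and 415, differences of -0.05 and 0.19.

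Among the pro-survival members, MCL1 was lower at 24 h while BCL2 and BCL2L1 were close to untreated. MCL1 encodes a short-lived protein whose level also depends on translation and on removal by ubiquitin ligases, which arrays do not measure. Its brightest probe set, 200797_s_at, had signals of 5760, 5495 and 3809 in the untreated, 6 h and 24 h arrays. The second, 200798_x_at, had 3621, 2695 and 1851. Thus the 24 h array was lowest by both, while the 6 h array was near untreated by the first and between the others by the second.

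At 24 h all 6 MCL1 probe sets were lower than in untreated cells, between -0.97 and -0.50, with a median of -0.65 and an SD of 0.22. The gene value was -0.60, and 13.6% of genes were as low. At 24 h all 6 were also lower than at 6 h, by 1.39-fold or more. The dimmest of the 6 was under 16 at 24 h, so its differences are bounds. The 2 probe sets of moderate signal whose names carry no mark of possible cross-hybridisation were 214056_at and 214057_at. They had 309, 219 and 158 and 170, 160 and 104 in the untreated, 6 h and 24 h arrays, so that they too were lowest at 24 h. At 6 h the 6 MCL1 probe sets ranged from -0.50 to 0.51, and the gene value of -0.07 turned to 0.08 after quantile normalization, so the 6 h array gave MCL1 no direction.

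BCL2L1 encodes BCL-XL, a pro-survival protein of many tissues, and the shorter pro-apoptotic BCL-XS by splicing, which gene-level values do not separate. Its brightest probe set had signals of 345, 261 and 380 in the untreated, 6 h and 24 h arrays. All 4 probe sets were lower at 6 h, between -0.79 and -0.21, and all 4 were higher at 24 h than at 6 h, between 0.21 and 0.54. At 24 h they lay between -0.26 and 0.14 of untreated. The 6 h array was therefore the low one for each of the 4.

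BCL2, the founding member and the target of venetoclax, had signals of 592, 622 and 525 by its brightest probe set in the untreated, 6 h and 24 h arrays. Its differences were 0.07 and -0.17, where the SD between its 4 probe sets was 0.69 at 6 h and 0.16 at 24 h. The other 3 probe sets had untreated signals between 23.6 and 81.4 and disagreed at 6 h, from at least 2.01-fold lower, for 207005_s_at with a 6 h signal under the floor, to 1.54-fold higher. At 24 h all 4 lay between -0.54 and -0.17. The 24 h value of the brightest one turned to 0.08 after centring on array medians.

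**Figure D2:**
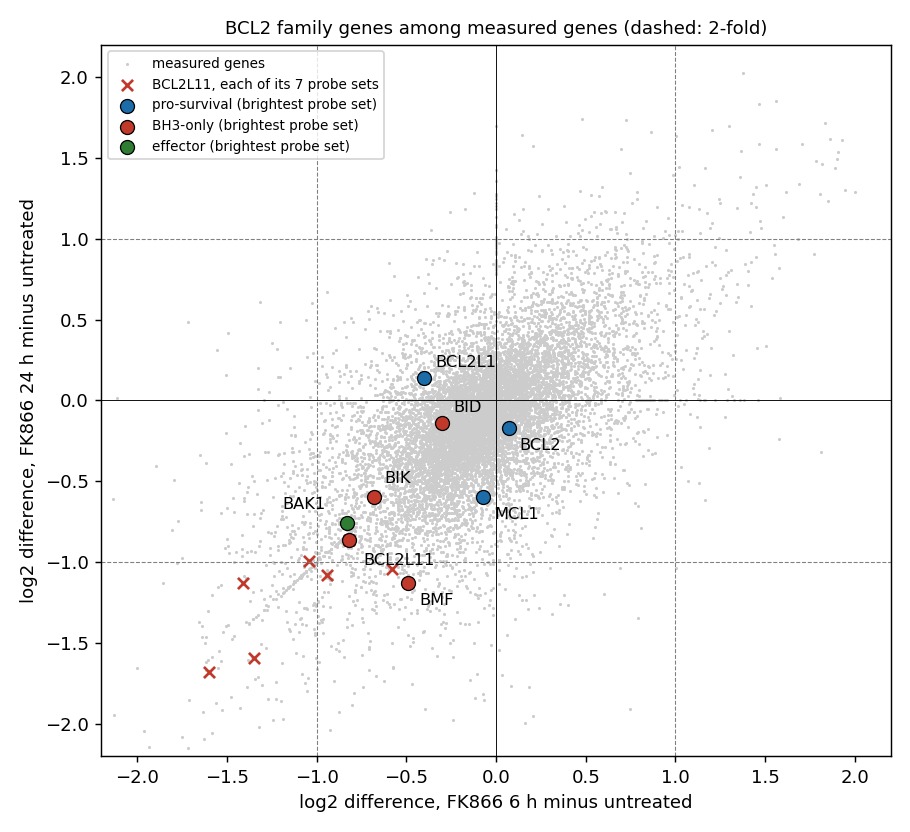
Log2 difference from untreated cells at 6 h (x axis) and at 24 h (y axis) for the 8 measured family genes (circles, brightest probe set), the 7 BCL2L11 probe sets (crosses) and all measured genes (grey), of which 34 lie outside the axes' limit of 2.2. BCL2L11, BMF, BIK and BAK1 lie in the lower left, and MCL1 lies low only on the 24 h axis.

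Counted by gene, 7 of the 8 measured members were below 0 at 6 h, as were 63.2% of all genes, and 7 of 8 were at 24 h, as were 65.2% of all. These shares move with the scaling: the median of all genes became 0.03 at 6 h and 0.05 at 24 h after quantile normalization, and 0.13 and 0.12 after centring on array medians. Set against the median of all genes, 6 of 8 members were lower at 6 h and 7 of 8 at 24 h. These 2 counts were the same after quantile normalization and after centring on array medians. Centring moves nearly all genes and their median alike, so it could hardly change these counts. The members below 0 numbered 6 of 8 at 6 h and 5 of 8 at 24 h after centring on array medians. The median member differed by -0.45 at 6 h and -0.60 at 24 h, against the -0.10 and -0.13 of all genes.

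At the smaller size of 1.5-fold, 3 of 8 members were lower at 6 h (BCL2L11, BIK and BAK1), as were 11.3% of all genes. At 24 h 5 of 8 were (these 3, MCL1 and BMF), as were 14.1% of all genes. These counts became 1 and 2 of 8 after centring on array medians, and the 24 h count 3 of 8 after quantile normalization. At 2-fold, 0 of 8 members were lower at 6 h, where 3.32% of all genes were, and 1 of 8 at 24 h, where 4.17% were.

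By probe set, 5 of 27 were at least 2-fold lower at 6 h, 4 of BCL2L11 and 1 of BCL2, where 5.26% of all 27308 measured probe sets were. At 24 h 6 of 27 were, 5 of BCL2L11 and the 1 of BMF, where 6.34% were. At least 2-fold higher were 0 of 27 at 6 h and 0 of 27 at 24 h, against 1.34% and 1.14% of all probe sets. The probe sets past 2-fold mostly belong to 1 gene and are no independent points. After quantile normalization 3 at 6 h and 2 at 24 h were 2-fold lower.

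Between the treated arrays the members went different ways. At 24 h MCL1 (-0.53) and BMF (-0.64) were lower than at 6 h and BCL2L1 (0.54) was higher, while BCL2L11, BIK and BAK1 lay between -0.04 and 0.07. The SD between a gene's own probe sets was 0.19 for MCL1 and 0.16 for BCL2L1. BMF, with 1 probe set, differed by 1.8 times the probe set SD at its level. BMF was the only 1 of 8 at least 1.5-fold lower, where 7.91% of genes were. By probe set, 1 of 27 was at least 2-fold lower (2.01% of all) and 0 of 27 at least 2-fold higher (1.23% of all), and that 1 is the dim MCL1 probe set under the floor at 24 h. The untreated array enters both differences from untreated, so those share its error, whereas this comparison does not use it.

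**Figure D3:**
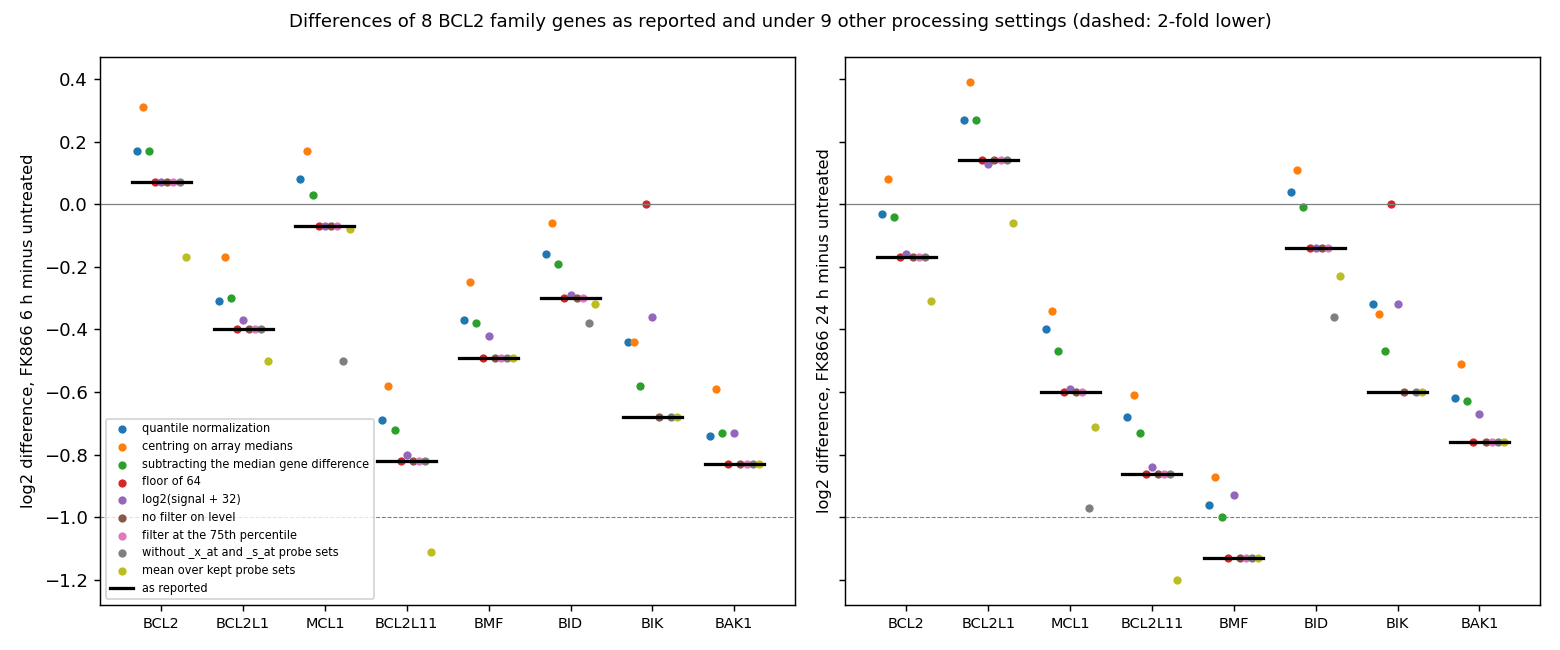
Log2 differences of the 8 measured family genes at 6 h (left) and 24 h (right) against untreated cells, as reported (black bars) and under 9 other processing settings (points). BCL2L11, BMF and BAK1 lie below 0 under every setting drawn, whereas BCL2, MCL1 and BIK at 6 h and BCL2, BCL2L1, BID and BIK at 24 h touch or cross 0 under at least 1 setting.

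By role, the 3 pro-survival members had a median of -0.07 at 6 h and -0.17 at 24 h. The 4 measured BH3-only members had -0.58 and -0.73, ranging from -0.82 to -0.30 at 6 h and from -1.13 to -0.14 at 24 h. The ranges of the roles overlapped at both times. Signals of different probe sets are not on a common scale, so the balance of pro-survival and pro-apoptotic transcripts cannot be read from them.

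Of 15 other BCL2 proteins listed, 9 were measured, with medians of -0.07 at 6 h and -0.13 at 24 h, near those of all genes. At least 1.5-fold lower were 0 of 9 at 6 h and 1 of 9 at 24 h, shares that, at this list size, lie near the 11.3% and 14.1% of all genes. BNIP1 was the lowest at 6 h (-0.39), followed by PMAIP1 (-0.29), which encodes NOXA, the BH3-only partner of MCL1. The 3 BNIP1 probe sets ranged from -0.39 to 0.11 at 6 h. BNIP3L, a mitophagy receptor, was the highest at 6 h (0.15), and at 24 h lay at -0.37, as did BECN1, a BCL2-binding autophagy protein. BCL2L15 was at least 2.07-fold lower at 24 h, but its signals were 33.1, 33.5 and 12.3 in the untreated, 6 h and 24 h arrays. BCL2L13 was highest at 24 h (0.33), then BAX (0.19) and BCL2L12 (0.13). The 4 BCL2L13 probe sets ranged from -0.12 to 0.37 at 24 h.

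Of 13 apoptosome and caspase genes, 11 were measured, with medians of -0.11 at 6 h and -0.05 at 24 h. At least 1.5-fold lower were 0 of 11 at either time, where 11.3% and 14.1% of all genes were, so a list of this size would hold about as few at those shares. CASP8, the initiator at death receptors that cleaves BID, was lowest at 6 h (-0.58), with signals of 1852, 1241 and 1705 in the untreated, 6 h and 24 h arrays. CASP6, an executioner caspase, was highest at 0.53 and 0.52, though its second probe set lay at 0.13 and -0.48. CYCS, which encodes the cytochrome c that leaves the mitochondria, differed by -0.21 and -0.14, and APAF1, its partner in the apoptosome, by -0.14 and 0.15. CASP2 lay at -0.25 at 6 h and was lowest at 24 h (-0.36), and the nuclease ENDOG lay at -0.28 at 6 h. Next to CASP6, the highest were CASP9 (0.33) and DFFB (0.19) at 6 h and DFFA (0.23) at 24 h. The 4 probe sets of CASP10 disagreed at 24 h, between -0.89 and 1.36.

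Of 9 inhibitors of apoptosis and their antagonists, 8 were measured, with medians of -0.16 and -0.17. At least 1.5-fold lower were 0 of 8 at either time, where 11.3% and 14.1% of all genes were. A list of this size would hold about as few at those shares. BIRC6 (-0.41) was lowest at 6 h by brightest probe sets, followed by XAF1 (-0.34) and XIAP (-0.21), the main direct caspase inhibitor. The other XAF1 probe set lay at -1.14. The XIAP values were the lowest of 7 probe sets, which reached 0.89 at 6 h and 0.56 at 24 h. At 24 h the lowest were BIRC2 (-0.40), DIABLO (-0.35), which displaces inhibitors from caspases, and XIAP (-0.28). XAF1 was highest at 24 h (0.33), at signals of at most 107, but its other probe set lay at -0.33. CFLAR (0.10) and BIRC5 (0.06) were highest at 6 h, and HTRA2 lay at 0.15 at 24 h. The 12 CFLAR probe sets ranged from -0.90 to 0.49 at 6 h and from -1.79 to 0.05 at 24 h. The 4 of BIRC5 ranged from -0.10 to 0.72 at 6 h. Of 8 death receptor genes, 7 were measured, with medians of 0.06 and -0.02. TNFRSF10B, which encodes the TRAIL receptor DR5, was 1.53-fold lower at 6 h, its 3 probe sets ranging from -0.62 to 0.60, and TRADD was highest at 24 h (0.27). TNFRSF1A (-0.36) and the adaptor FADD (-0.33) followed TNFRSF10B at 6 h, and the ligand TNFSF10 was lowest at 24 h (-0.43). The 3 TNFSF10 probe sets ranged from -0.43 to 0.23 at 24 h. FAS was highest at 6 h (0.19), and TNFRSF10A lay at 0.08 at 6 h and 0.13 at 24 h.

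All 10 genes of binding partners and turnover of BCL2 proteins were measured, with medians of -0.14 and -0.21. At least 2-fold lower by gene value were 0 of 10 at either time, where 3.32% and 4.17% of all genes were. A list of this size would hold about as few at those shares. At least 1.5-fold lower were 0 of 10 at 6 h and 2 of 10 at 24 h, where 11.3% and 14.1% of all genes were. Below 0 were 9 of 10 at 6 h and 10 of 10 at 24 h, as were 63.2% and 65.2% of all genes. DYNLL2, the dynein light chain that holds BMF, had signals of 659, 474 and 416 in the untreated, 6 h and 24 h arrays and was 1.59-fold lower at 24 h. Its 3 probe sets ranged from -1.09 to -0.12 at 24 h. FBXW7, a ubiquitin ligase subunit that targets MCL1, had 465, 328 and 308 and was 1.51-fold lower at 24 h. Its 4 probe sets ranged from -0.71 to -0.20 at 24 h. USP9X, which removes ubiquitin from MCL1, differed by -0.34 and -0.22, and the MCL1 ligase HUWE1 by -0.01 and -0.10. The 4 USP9X probe sets ranged from -1.19 to -0.34 at 6 h and from -0.62 to -0.08 at 24 h. VDAC2, which holds BAK1 at the mitochondrial membrane, had signals of 3764, 3570 and 3758. BTRC was highest at 6 h (0.20) and lay at -0.37 at 24 h, and TPT1 differed by -0.03 and -0.06.

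Of 17 transcription factors known to act on family genes, 15 were measured, with medians of -0.23 and -0.21. At least 2-fold lower were 3 of 15 at 6 h and 2 of 15 at 24 h, where 3.32% and 4.17% of all genes were. The list was chosen with earlier results of these data known. CREM, a factor of the cAMP response, had signals of 2973, 587 and 83.7 in the untreated, 6 h and 24 h arrays by its brightest probe set. Its 5 probe sets ranged from -2.41 to -0.30 at 6 h and from -5.15 to -0.79 at 24 h. NFKB1, a subunit of NF-kB, had 710, 441 and 361 and was 1.97-fold lower at 24 h. STAT3, the effector of interleukin-6 known to act on MCL1, had 556, 477 and 340 in the brightest probe set and was 1.64-fold lower at 24 h, the lowest of 4 probe sets that ranged from -0.71 to -0.04. The brighter E2F1 probe set was 2.02-fold lower at 6 h and the other differed by -0.35. BCL6 was under the floor at 6 h, at least 4.0-fold lower, and 3.15-fold lower at 24 h, where its signal was 20.3. IRF4, a plasma cell factor, was the highest, 1.90-fold higher at 24 h. MYC (0.16) and CREB1 (0.15) followed it at 6 h and STAT5B (0.17) at 24 h. The other IRF4 probe set lay at -0.21 at 6 h and 0.82 at 24 h. The CREB1 and STAT5B values were each the highest of their gene. The 7 CREB1 probe sets reached down to -0.25 at 6 h and the 3 of STAT5B to -1.01 at 24 h. Whether any of these bears on the members was not tested.

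**Figure D4:**
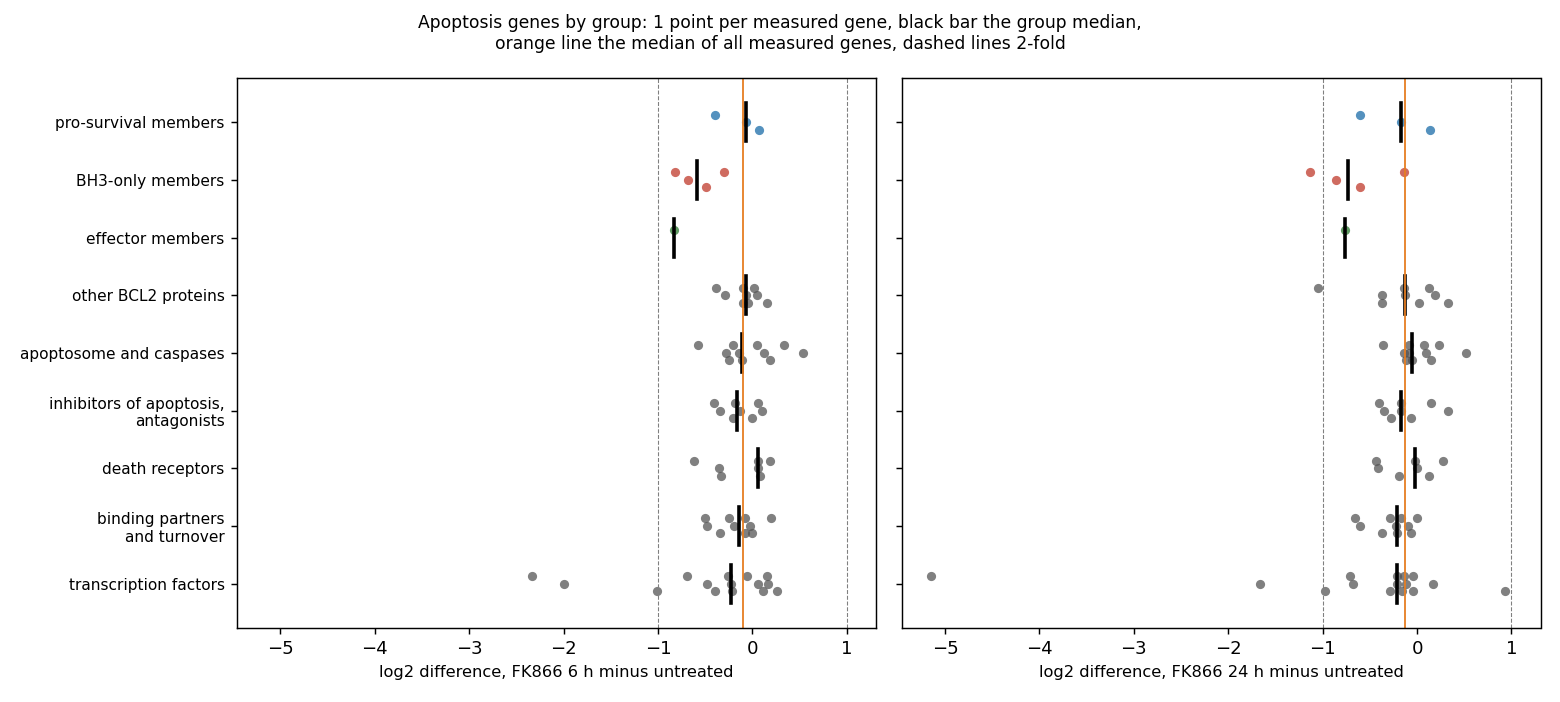
Log2 difference from untreated cells at 6 h (left) and 24 h (right), 1 point per measured gene, for the family members by role (coloured) and 6 lists of other apoptosis genes (grey). Black bars are group medians, the orange line is the median of all measured genes (-0.10 and -0.13), and the medians of the 4 BH3-only members (-0.58 and -0.73) lie left of it.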

How the data were processed

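Transcripts were measured in MM1S cells on 3 Affymetrix arrays, 1 per group. The authors deposited 1 linear intensity per probe set and array, from 0.1 to 20258, for 54675 probe sets. Biotinylated cRNA was made from total RNA by the standard Affymetrix procedure, per the labels' protocols. Probe summary, background correction and scaling are not given in the sources used here. Genes were named through GEO's platform annotation of 2016, which gave 41097 probe sets exactly 1 symbol, and symbols were updated through RefSeq by gene identifier, where all 10 members matched under the same symbol. The floor, filter and choice of the brightest probe set are those stated with the results. Other probe sets of a list gene can differ from its brightest one, and their range is given for only some genes. Genes of the 6 apoptosis lists are named where they were among the 3 highest or 3 lowest at a time or past 2-fold; CASP10, FOXO1, STAT3 and the plasma cell marker XBP1 fall outside this and were named after their values were seen. Members, lists and alternatives were chosen with earlier results of these data known. No p-value is given, and the number of arrays limits the precision. The procedure was tested on simulated data. The plasma cell and other marker lists, promoter motifs and the 6 lists of apoptosis genes are all reported. Alternatives covered scaling, floor, filter, probe set summary, cross-hybridisation and fold. Python 3.11.15, numpy 2.4.6, pandas 2.3.3 and matplotlib 3.10.9 were used.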

Additional observations from a re-analysis of the deposited data

Results flagged for a closer look

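The differences of 2 members from untreated cells had opposite signs at the 2 times. BCL2 lay at 0.07 at 6 h and -0.17 at 24 h, and BCL2L1 at -0.40 at 6 h and 0.14 at 24 h. The difference between the times was not tested, since each time has 1 array. With the mean over probe sets in place of the brightest one, BCL2 at 6 h lay at -0.17 and BCL2L1 at 24 h at -0.06, so that the signs were then alike. For BCL2L1 the 24 h array was higher than the 6 h array by all 4 probe sets.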

How the results depend on the processing

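No paired analysis was possible because each group has 1 array. BCL2L11, BMF and BAK1 were lower than untreated at both times under all 9 alternatives run for a gene. BCL2L11 ranged from -1.11 to -0.58 at 6 h and from -1.20 to -0.61 at 24 h. BMF ranged from -0.49 to -0.25 at 6 h and from -1.13 to -0.87 at 24 h. BAK1 ranged from -0.83 to -0.59 at 6 h and from -0.76 to -0.51 at 24 h. Of these genes, centring on array medians took BCL2L11 at 6 h (-0.58) and BAK1 at 24 h (-0.51) under 1.5-fold. MCL1 at 24 h ranged from -0.97 to -0.34, and at 6 h from -0.50 without probe sets that may cross-hybridise to 0.17. BIK was at 0.00 at both times with a floor of 64, which exceeds its signals, and had no value with a stricter filter (75th percentile). The probe sets at least 2-fold lower at 6 h numbered 5, but 3 after quantile normalization, centring on array medians, subtracting the median gene difference or log2(signal + 32), 2 when probe sets that may cross-hybridise are left out, and 11 at 1.5-fold. At 24 h they numbered 6, but 2 after quantile normalization or centring on array medians, 3 after subtracting the median gene difference and 14 at 1.5-fold. Those at least 2-fold higher numbered 0, and 1 at 1.5-fold, at 6 h and between the treated arrays. Between the treated arrays 1 was lower, 0 after subtracting the median gene difference, with a floor of 64, with log2(signal + 32) or with the stricter filter, and 4 at 1.5-fold. Members at least 1.5-fold lower numbered 3 at 6 h, but 1 after centring on array medians, and 5 at 24 h, but 2 after centring and 3 after quantile normalization or subtracting the median gene difference. The median member difference at 6 h was -0.45, but -0.21 after centring on array medians and -0.18 with a floor of 64. At 24 h it was -0.60, but -0.35 after centring on array medians, -0.36 after quantile normalization and -0.16 with a floor of 64, where all 10 members are kept and HRK and BOK are 0. Subtracting the median gene difference and all alternatives for members at 1.5-fold were chosen after seeing the data. The cause of these shifts was not tested beyond what each setting leaves out.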
